A study of Homo sapiens with 24 samples.

Results

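YAP1 and its paralog WWTR1, which encodes TAZ, are co-activators that have no DNA-binding domain of their own and reach DNA through the TEAD transcription factors. The genes described here are YAP1, WWTR1, the factors TEAD1, TEAD3 and TEAD4, the targets CTGF, CYR61 and ANKRD1, and the feedback genes AMOTL2 and LATS2, chosen by name and found as 10 of the 58174 genes listed for each cell line. They were followed in total RNA from 4 established human cancer cell lines, the lung adenocarcinoma line A549, the ovarian carcinoma line ES2, the melanoma line MV3 and the pancreatic carcinoma line PANC1. In each line IGF2BP1, an RNA-binding protein that stabilises target mRNAs, was depleted with a pool of siRNAs (siI1) and compared with a control siRNA (siC), with 3 biological replicates in each of the 8 groups and 24 libraries in all. RNA was taken 72 h after transfection in A549, ES2 and MV3, and 96 h in PANC1, so that in PANC1 line and time cannot be told apart. The knockdown was transient, all 4 lines were otherwise unmodified, and each tumour type was represented by a single line. The question was whether the mRNAs of this pathway changed when IGF2BP1 was lowered, and whether they did so alike in the 4 lines.

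The targeted gene was lower after siI1 in every line. Levels are given in FPKM, reads per kilobase of gene scaled by the depth of the library. IGF2BP1 (chr17:48997385-49056145, plus strand) averaged 39.7 ± 0.0742 FPKM in siC and 15.6 ± 0.674 in siI1 of A549, and 11.1 ± 0.151 and 2.78 ± 0.080 for PANC1 (SD, n = 3 each). The means were 9.26 ± 0.325 and 2.91 ± 0.126 for MV3, and 13.1 ± 0.914 and 4.14 ± 0.102 for ES2. Every siI1 library was below every siC library of its line, and the log2 fold change lay between -1.32 in A549 (limma adjusted p = 0.000319) and -1.83 in PANC1 (0.000227). Long non-coding genes on the opposite strand overlap IGF2BP1 exons, 1 of them with a mean of 3.33 FPKM in A549 and 1.22 in PANC1. Libraries held 3105215 to 4553326 reads assigned to genes in A549, 6421764 to 8419467 in ES2, 15572492 to 20082702 in MV3 and 6532175 to 8472851 in PANC1, so a low value rests on the fewest reads in A549. Of 6 epithelial markers, KRT8, KRT18 and KRT19 averaged 117 to 717 FPKM in siC of A549 and PANC1 and 0 to 44.4 in ES2 and MV3. KRT7 averaged 399 in A549, 103 in ES2, 2.88 in PANC1 and 0.911 in MV3, while EPCAM and CDH1 were at 1.17 to 18.4 in A549 and PANC1 and at or below 0.0344 elsewhere. In siC NKX2-1, SFTPB and SFTPC were listed at 0 in A549, PAX8 and WT1 were at or below 0.157 FPKM on average in ES2, and SOX10, TYR and S100B were listed at 0 in MV3. The PANC1 libraries differed in their FPKM sum, 526337 to 756438 in siC against 977547 to 1191706 in siI1. Rescaling every library to the same sum moved the median change of all genes in PANC1 from -0.04 to -0.68 on the log2 scale, and its effect on the members is given beside their PANC1 results. The part of that difference in the PANC1 results was not tested.

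The Hippo pathway limits YAP and TAZ. A kinase cascade ending in LATS1 and LATS2 phosphorylates both co-activators, which are then held in the cytoplasm or degraded; when the cascade is quiet they enter the nucleus, bind TEAD factors and switch on genes for growth and matrix. In epithelial and mesenchymal tumour cells the pathway is known for sensing cell density and stiffness, and it is best read from its targets: CTGF (CCN2) and CYR61 (CCN1) encode secreted matricellular proteins, and ANKRD1 a nuclear ankyrin repeat protein. AMOTL2, an angiomotin family member, and LATS2 are induced by YAP and TAZ and hold them back in turn.

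TEAD factors recognise a short core element, and its positions in the promoter windows of the members are shown here as a description of sequence. RefSeq promoter windows of GRCh38.p14, from 250 bases before to 50 after a transcription start, were held for 7 of the 10 genes and 9 starts. CYR61, TEAD1 and TEAD4 had no entry. The letters GGAATG, or CATTCC where the element lies on the opposite strand, occurred in 5 of the 9 windows, against 14.0% of all 35116 windows. CTGF held 3 copies, a number reached by 0.125% of all windows, and ANKRD1 held 2 copies, where 1.36% of all windows hold 2 or more. Both genes were chosen as targets of the pathway, so these shares carry no test. Below, the 250 bases before the start are given for CTGF (chr6:131951373-131951622, minus strand) and ANKRD1 (chr10:90921088-90921337, minus strand), and 30 bases around the element for YAP1 (chr11:102110273-102110302, plus strand), AMOTL2 (chr3:134374499-134374528, minus strand) and LATS2 (chr13:21061560-21061589, minus strand), each 5′ to 3′ on the strand of the gene with the element in capitals.
CTGF: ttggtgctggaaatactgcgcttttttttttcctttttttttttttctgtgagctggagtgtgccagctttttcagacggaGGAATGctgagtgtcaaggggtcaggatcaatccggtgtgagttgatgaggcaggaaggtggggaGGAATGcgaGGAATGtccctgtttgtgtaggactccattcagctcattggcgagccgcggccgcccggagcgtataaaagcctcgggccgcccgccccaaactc
ANKRD1: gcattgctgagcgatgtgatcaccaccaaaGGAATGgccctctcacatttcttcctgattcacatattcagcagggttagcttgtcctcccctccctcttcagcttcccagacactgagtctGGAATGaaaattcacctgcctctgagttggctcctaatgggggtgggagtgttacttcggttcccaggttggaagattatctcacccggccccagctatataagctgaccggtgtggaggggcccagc
YAP1: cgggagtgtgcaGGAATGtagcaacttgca
AMOTL2: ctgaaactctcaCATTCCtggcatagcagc
LATS2: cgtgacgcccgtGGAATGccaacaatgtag

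The CTGF copies began 169, 104 and 95 bases before the start and those of ANKRD1 220 and 128 bases before it. In YAP1 the element began 162 bases before the start, in the second of 2 AMOTL2 starts 69 bases before it, and in LATS2 9 bases after it. The WWTR1 windows, the TEAD3 window and the first AMOTL2 window did not hold these letters. A match of letters is a description of the sequence, not evidence of binding, and nothing was measured here on TEAD occupancy.

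**Figure D1:**
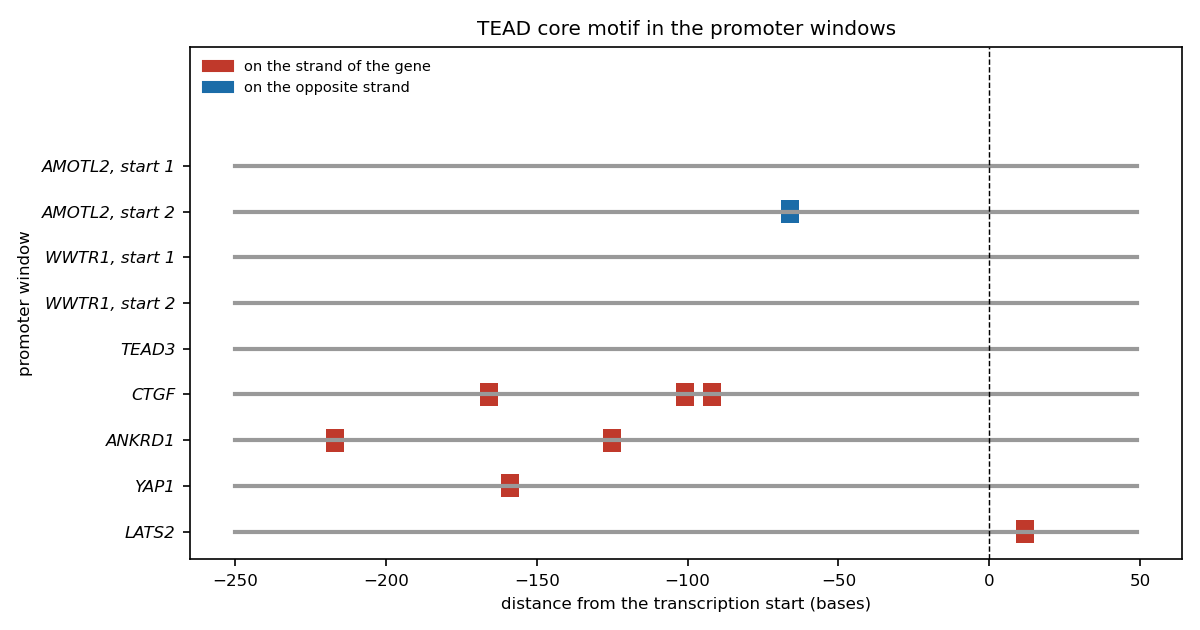
Positions of the TEAD core element, GGAATG or its reverse complement, in the promoter windows of 7 genes (9 starts), with the distance from the transcription start in bases on the x axis and 1 grey line per window. The 3 copies of CTGF and the 2 of ANKRD1 lie before the start on the strand of the gene, the AMOTL2 copy on the opposite strand, and the LATS2 copy after the start.

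YAP1 was the only one of the 10 genes called lower in all 4 lines, and no member was called higher in all 4. Each line was tested on log2(FPKM + 0.5) with limma. A gene was called where the Benjamini-Hochberg adjusted p over all tested genes was under 0.05. All 10 members passed the filter of a mean of 0.5 FPKM over the 6 libraries of every line. In MV3 ANKRD1 passed it only through the siC group, at 0.849 FPKM in siC and 0.279 in siI1. Its place among the lower members of MV3 carries that limit. In A549, 4 members were lower (YAP1, TEAD1, TEAD4, AMOTL2) and 1 was higher (WWTR1), where 7.83% of all genes were lower and 5.93% higher. In ES2, 4 were lower (YAP1, TEAD4, CTGF, ANKRD1) and 2 higher (WWTR1, CYR61), against 13.0% and 10.5% of all genes. In MV3, 6 were lower (YAP1, TEAD1, TEAD4, CTGF, CYR61, ANKRD1) and 2 higher (WWTR1, LATS2), against 19.5% and 16.3%. In PANC1, 5 were lower (YAP1, WWTR1, TEAD1, ANKRD1, AMOTL2) and 2 higher (CTGF, LATS2), against 13.4% and 11.3%. The members had a median change of -0.42 in A549 (-0.01 over all tested genes), -0.27 in MV3 (0.01), -0.10 in ES2 (-0.02) and -0.01 in PANC1 (-0.04). Without the library whose omission lowered it most, the count of lower members was 5 for MV3, 2 for A549 and PANC1, and 1 for ES2. The members concerned are named with their values below. Leaving out 1 library also lowered the count over all genes, to 796 to 1036 in A549 (from 1441) and 1497 to 1720 in ES2 (from 2201). In MV3 it was 2498 to 3037 (from 3190), and in PANC1 1237 to 1954 (from 2131). A count of 1 or 2 of 10 members is near the shares of all genes. These are bulk RNA values, in which fewer cells expressing a gene and less RNA per cell cannot be told apart.

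**Figure D2:**
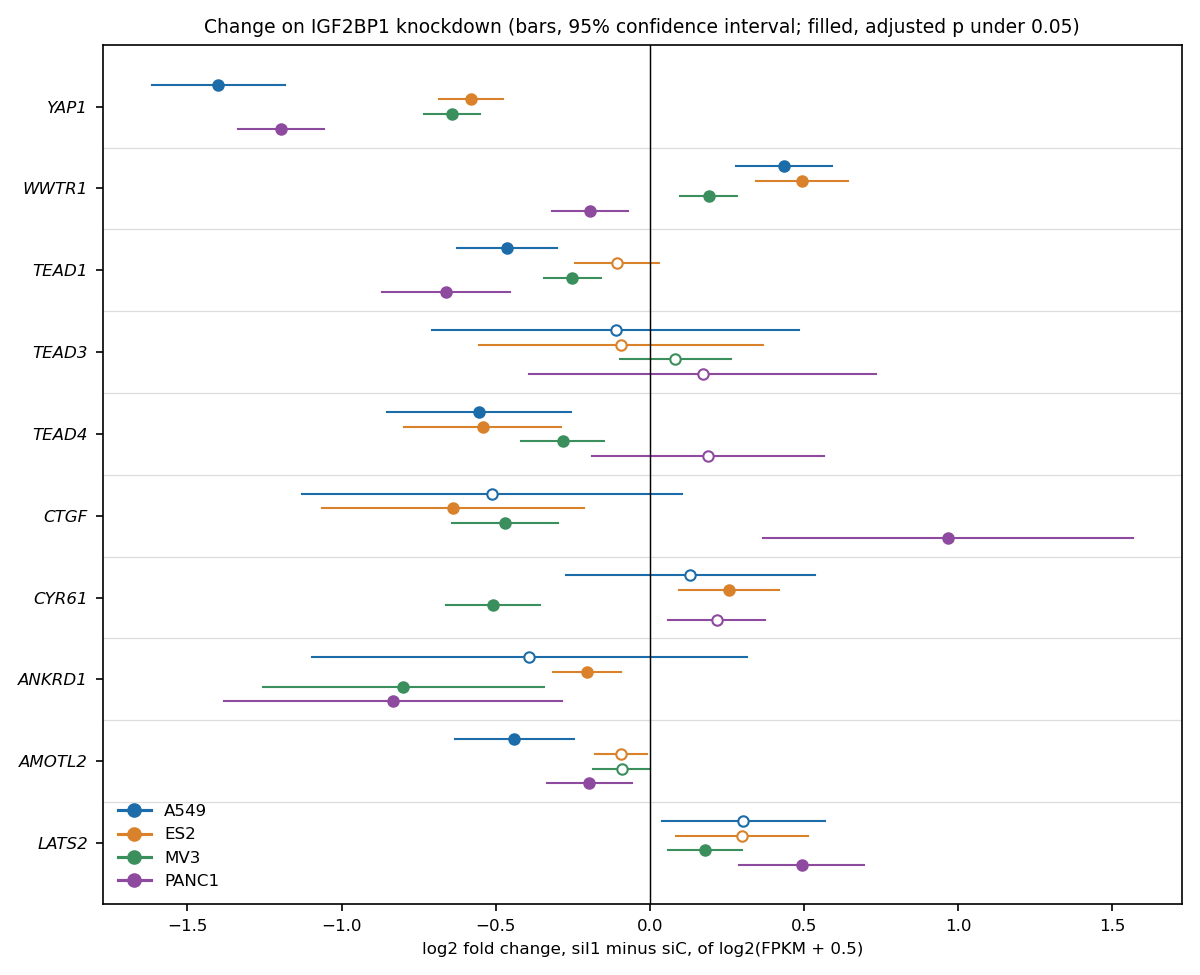
Change of each of the 10 genes on IGF2BP1 knockdown, as the log2 fold change of siI1 minus siC on the log2(FPKM + 0.5) scale (x axis), with 1 point per cell line, its 95% confidence interval as a bar, and filled points where the limma adjusted p was under 0.05. YAP1 lies left of 0 in all 4 lines, WWTR1 lies right of 0 in A549, ES2 and MV3 and left of it in PANC1, and LATS2 lies right of 0 in all 4. After rescaling to the same FPKM sum the LATS2 change in PANC1 becomes -0.21, which is 0.48 above the median of all genes (-0.68).

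YAP1 (chr11:102110447-102233424, plus strand) lost from 33.3% of its mean FPKM, in ES2, to 63.1%, in A549. In A549 the siC libraries had 29.2, 28.7 and 26.2 FPKM and the siI1 libraries 10.5, 9.22 and 11.3. In ES2 they had 79.9, 75.7 and 78.1 against 53.9, 51.3 and 50.7. All siI1 libraries of these lines were below all siC libraries. In MV3 YAP1 stood at 43.6, 43.5 and 42.6 FPKM in siC and 28.0, 28.4 and 26.2 in siI1. In PANC1 it stood at 42.2, 43.8 and 45.1 in siC and 18.4, 19.9 and 18.2 in siI1. The groups were apart in these lines as well. The log2 fold change was -1.40 ± 0.089 in A549 (SE, limma adjusted p = 0.00086), -1.20 ± 0.058 in PANC1 (0.000463), -0.64 ± 0.038 in MV3 (0.000178) and -0.58 ± 0.043 in ES2 (0.000509). The call held in every line whichever library was left out, and in PANC1 the change relative to the median of all genes was -1.16 as deposited and -1.25 after rescaling to the same sum. A long non-coding gene on the opposite strand overlaps YAP1 exons and had a mean of 3.94 FPKM in ES2 and 0.690 to 0.711 in the other lines, and whether reads were counted by strand is not given in the sources used here.

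WWTR1 (chr3:149517235-149736714, minus strand) moved in the direction opposite to YAP1 in A549, ES2 and MV3, and in the same direction in PANC1. In A549 it rose from 25.7, 23.8 and 22.5 FPKM in siC to 31.5, 33.5 and 32.9 in siI1. In ES2, where it was lowest, it rose from 5.48, 5.63 and 5.65 to 7.73, 7.98 and 8.53, and in MV3 from 12.01, 12.1 and 11.5 to 14.0, 13.2 and 13.6. In all 3 lines every siI1 library was above every siC library. In PANC1 it had 36.4, 34.2 and 35.0 FPKM in siC and 30.1, 31.8 and 30.2 in siI1, so that here the siI1 libraries were the lower ones. On the log2 scale the change was 0.49 ± 0.062 in ES2 (limma adjusted p = 0.00299), 0.44 ± 0.064 in A549 (0.00888), 0.19 ± 0.038 in MV3 (0.0103) and -0.19 ± 0.051 in PANC1 (0.0365). The PANC1 call was lost when any library other than siC replicate 2 was left out (limma adjusted p from 0.0597 to 0.129), and the change relative to the median of all genes there was -0.16 as deposited and -0.26 after rescaling. In MV3 the call was not kept after rescaling to the same sum (limma adjusted p = 0.0964). The antisense gene WWTR1-AS1 overlaps WWTR1 exons and averaged 0.274 to 0.745 FPKM, far below WWTR1 itself.

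FPKM is set per length, here a single deposited gene length of 6296 bases for YAP1 and 8413 for WWTR1. The lengths of the transcripts present in each line were not measured, so adding the paralogs is an approximation. The same holds for the sum of the TEAD genes further on. The sum of YAP1 and WWTR1 was 83.5 ± 2.03 FPKM in siC and 60.1 ± 1.39 in siI1 of ES2, 78.9 ± 1.10 and 49.5 ± 1.91 in PANC1, 55.1 ± 0.910 and 41.1 ± 1.23 in MV3, and 52.1 ± 3.10 and 43.0 ± 1.15 in A549 (SD, n = 3). The sum was lower in all siI1 libraries of each line than in all siC libraries of that line. The share of WWTR1 in it averaged 46.1% ± 0.722 in siC and 75.9% ± 2.14 in siI1 of A549, 44.6% ± 1.46 and 62.0% ± 0.489 in PANC1, 21.5% ± 0.280 and 33.1% ± 1.20 in MV3, and 6.70% ± 0.258 and 13.5% ± 0.936 in ES2. By this measure WWTR1 mRNA made up the larger share in A549 and PANC1 after knockdown, whereas YAP1 mRNA remained the larger in ES2 and MV3. In A549 and PANC1 the siC shares were already near equal, so which paralog was the larger there depends on the lengths used. These sums and shares are descriptions and were not tested.

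**Figure D3:**
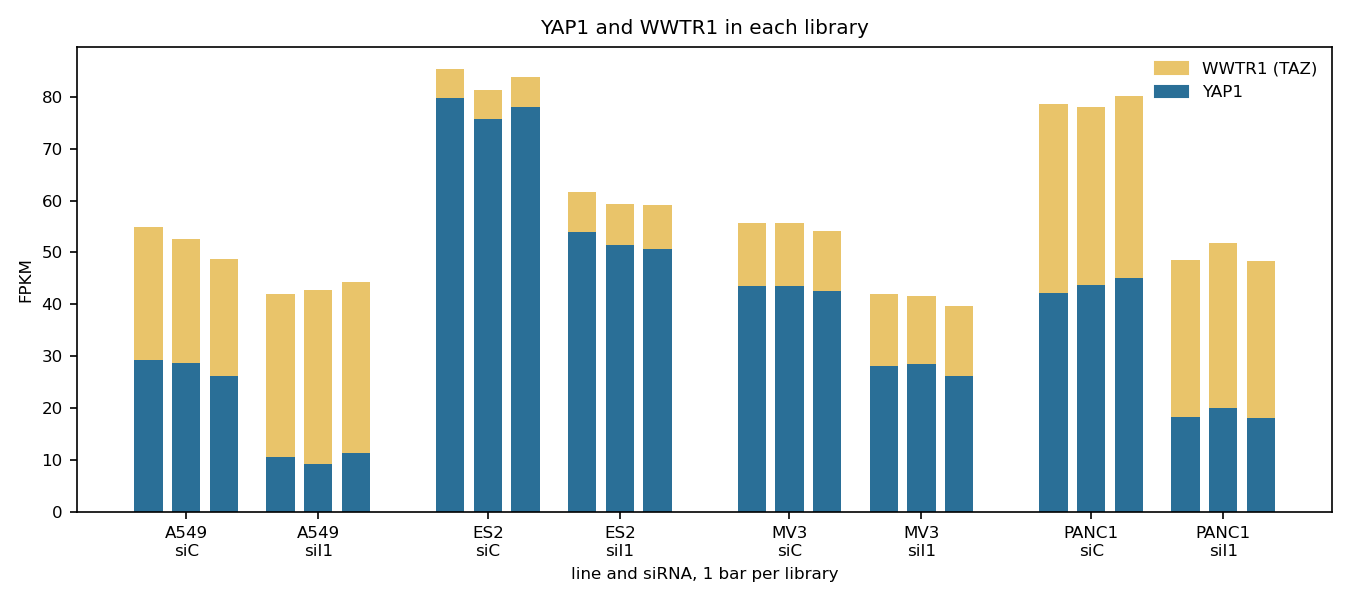
FPKM of YAP1 (blue) and WWTR1 (yellow) stacked in each of the 24 libraries, 1 bar per library, ordered by cell line and siRNA. The blue part is shorter in the siI1 libraries of all 4 lines, and the yellow part is longer in siI1 of A549, ES2 and MV3 and shorter in siI1 of PANC1.

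Of the DNA-binding factors, TEAD1 fell in A549, MV3 and PANC1 and TEAD4 in A549, ES2 and MV3, while TEAD3 was called in no line. TEAD1 (chr11:12674421-12944737, plus strand) had 37.5, 40.4 and 36.0 FPKM in siC and 25.7, 28.6 and 27.9 in siI1 of A549. In MV3 it had 40.1, 41.1 and 43.8 against 35.5, 34.9 and 34.4, and in PANC1 23.7, 22.2 and 26.8 against 15.6, 15.7 and 14.0. The siI1 libraries were below the siC libraries in each of these lines, and in ES2 too, where the values were closest, at 14.1, 13.6 and 13.3 in siC and 11.96, 13.2 and 12.8 in siI1. The log2 fold change of TEAD1 was -0.46 ± 0.067 in A549 (limma adjusted p = 0.00875), -0.25 ± 0.038 in MV3 (0.00356) and -0.66 ± 0.086 in PANC1 (0.00374). In ES2 it was -0.11 with a 95% interval from -0.24 to 0.03 (limma adjusted p = 0.233). Rescaling to the same sum gave -1.40 in PANC1, where the change relative to the median of all genes was -0.62 as deposited and -0.71 rescaled.

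TEAD4 (chr12:2959330-3040676, plus strand) had 8.96, 11.6 and 12.2 FPKM in siC and 7.11, 7.36 and 7.20 in siI1 of A549, and 19.1, 23.4 and 22.9 against 16.5, 14.1 and 13.8 in ES2. In MV3 it had 20.7, 20.2 and 19.7 against 16.2, 17.9 and 15.5. In these lines the groups did not overlap. In PANC1 they did, at 14.2, 16.9 and 10.7 in siC and 15.3, 16.5 and 15.3 in siI1. TEAD4 had a log2 fold change of -0.55 ± 0.123 in A549 (limma adjusted p = 0.0329), -0.54 ± 0.105 in ES2 (0.0133) and -0.28 ± 0.056 in MV3 (0.00993). In PANC1 it was 0.19 with a 95% interval from -0.19 to 0.57 (limma adjusted p = 0.426), and it turned to -0.54 after rescaling to the same sum, or 0.14 relative to the median of all genes. The A549 call rested on 52 to 122 reads per library and was lost when any library other than siC replicate 1 was left out (limma adjusted p from 0.0896 to 0.0984), and the ES2 call was lost without siI1 replicate 3 (0.0515).

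TEAD3 (chr6:35473597-35497079, minus strand) was the lowest of the factors, with group means of 0.965 to 3.16 FPKM and 11 to 198 reads per library, and its groups overlapped in all 4 lines. Its 95% intervals for the log2 fold change ran from -0.10 to 0.26 in MV3, -0.55 to 0.37 in ES2, -0.39 to 0.73 in PANC1 and -0.71 to 0.48 in A549, so that only in MV3 would a change of 0.4 on the log2 scale in either direction lie outside the interval. The PANC1 estimate of 0.17 turned to -0.34 after rescaling to the same sum, which is 0.34 above the median of all genes, against 0.21 above it as deposited. TEAD2 is the remaining member of the family, and the 4 TEAD genes summed to 75.0 ± 0.778 FPKM in siC and 63.9 ± 1.72 in siI1 of MV3, 63.7 ± 4.12 and 44.7 ± 3.17 in A549, 43.0 ± 1.12 and 35.4 ± 1.00 in PANC1, and 39.7 ± 1.59 and 31.3 ± 1.78 in ES2 (SD, n = 3). TEAD1 made up most of this sum in siC of A549, MV3 and PANC1, at 55.6% to 59.6%, and TEAD4 most of it in ES2, at 54.8% ± 3.92. In PANC1 the TEAD1 share was 56.5% ± 6.94 in siC and 42.6% ± 1.62 in siI1, with the TEAD4 share at 32.3% ± 6.39 and 44.3% ± 1.24.

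**Figure D4:**
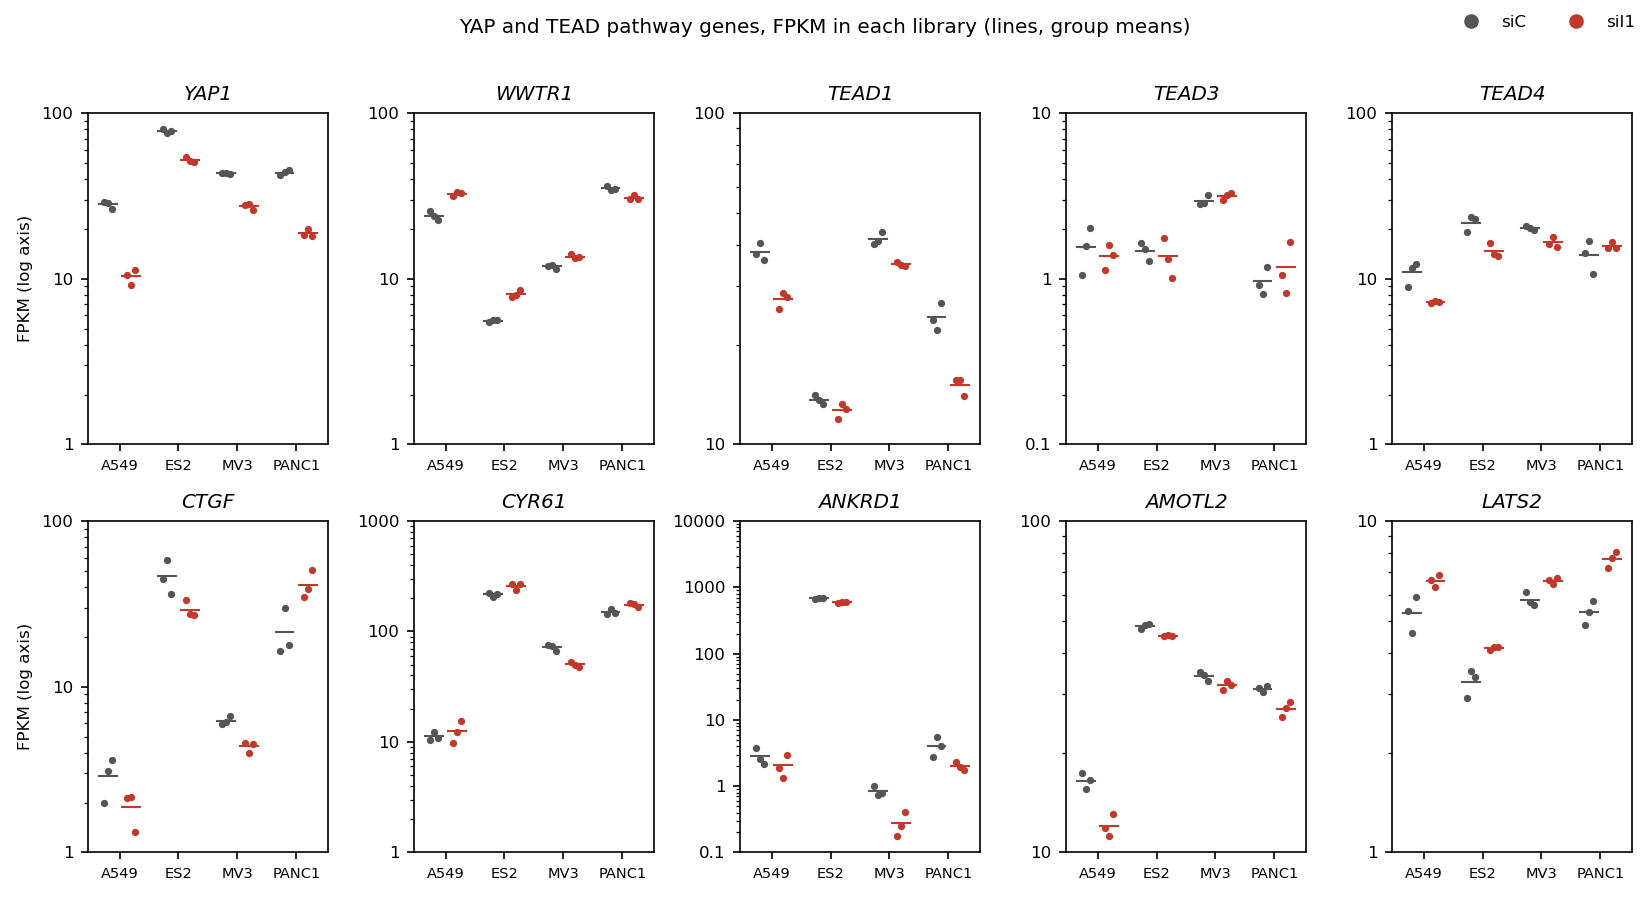
FPKM of each of the 10 genes in each of the 24 libraries on log axes, with siC in grey and siI1 in red, 3 points per group and the group mean as a line. The siC and siI1 points of YAP1 are apart in all 4 lines, those of TEAD3 overlap in all 4, and ANKRD1 in ES2 stands at 569 to 693 FPKM, above every library of the other lines.

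The secreted targets, CTGF and CYR61, were both called lower in MV3 and were called in opposite directions in ES2. In PANC1 both estimates were positive as deposited, with CYR61 not called, and in A549 neither was called. CTGF (chr6:131948176-131951372, minus strand) had 44.6, 58.1 and 36.3 FPKM in siC and 33.2, 27.3 and 27.0 in siI1 of ES2. In MV3 it had 5.94, 6.11 and 6.63 against 4.58, 3.97 and 4.53, so that all siI1 libraries were the lower ones in both lines. In PANC1 it had 16.4, 30.04 and 17.8 in siC and 34.6, 38.9 and 50.6 in siI1, where all siI1 libraries were the higher ones. In A549, at 1.99, 3.12 and 3.61 in siC and 2.13, 2.16 and 1.33 in siI1 and only 11 to 37 reads per library, the groups overlapped. CTGF had a log2 fold change of -0.64 ± 0.176 in ES2 (limma adjusted p = 0.0452), -0.47 ± 0.071 in MV3 (0.0035) and 0.97 ± 0.249 in PANC1 (0.0342). In A549 it was -0.51 with a 95% interval from -1.13 to 0.10 (limma adjusted p = 0.254). The ES2 call was lost without any library other than siC replicate 3 (limma adjusted p from 0.0596 to 0.132), and the PANC1 call without any other than siC replicate 2 (0.0588 to 0.102). In PANC1 the change was 0.23 after rescaling to the same sum (limma adjusted p = 0.382), which is 0.91 above the median of all genes, against 1.00 above it as deposited.

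CYR61 (chr1:85580761-85584589, plus strand) fell in MV3 and rose in ES2. In MV3 it had 75.8, 73.5 and 66.4 FPKM in siC and 53.2, 50.2 and 47.6 in siI1, with a log2 fold change of -0.51 ± 0.063 (limma adjusted p = 0.00158). In ES2 it had 225, 205 and 220 FPKM in siC and 270, 237 and 270 in siI1, with 0.26 ± 0.067 (limma adjusted p = 0.0386). The groups were apart in both lines, in opposite directions. The ES2 call was lost without any library other than siI1 replicate 2 (limma adjusted p from 0.0658 to 0.12). In PANC1 the values were 145, 161 and 146 in siC and 181, 177 and 167 in siI1, which was not past the threshold at 0.22 ± 0.066 (limma adjusted p = 0.0568). On recovered reads with limma voom the PANC1 change was past it (adjusted p = 0.0156), and after rescaling to the same sum it turned to -0.54, or 0.15 above the median of all genes. In A549 CYR61 had 10.5, 12.3 and 10.9 FPKM in siC and 9.75, 12.3 and 15.5 in siI1, and the 95% interval of the log2 fold change ran from -0.27 to 0.53. Both secreted targets were called lower in MV3, and with limma voom on recovered reads both were called higher in PANC1 (adjusted p = 0.000241 for CTGF).

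ANKRD1 (chr10:90912096-90921087, minus strand) was called lower in ES2, MV3 and PANC1, from levels that lay orders apart. In ES2 it had 674, 681 and 693 FPKM in siC and 569, 609 and 601 in siI1. In PANC1 it had 2.74, 5.46 and 3.97 against 2.29, 1.93 and 1.75, and in MV3 1.01, 0.741 and 0.800 against 0.176, 0.249 and 0.412. All siI1 libraries were below all siC libraries in these 3 lines. In MV3 the gene passed the filter only through its siC group. The change on the log2 scale was -0.20 ± 0.046 in ES2 (limma adjusted p = 0.0238), -0.80 ± 0.189 in MV3 (0.0188) and -0.83 ± 0.227 in PANC1 (0.0415). The added 0.5 understates the change at the low level of MV3, where a library held 7 to 30 ANKRD1 reads: on recovered reads, limma voom gave -1.64 ± 0.368 (adjusted p = 0.000587). The ES2 call was lost without any library other than siI1 replicate 2 (limma adjusted p from 0.0567 to 0.0758) and after rescaling to the same sum (0.241), the MV3 call without siI1 replicate 1 or 2 (0.0527 and 0.0553), and the PANC1 call without any library other than siC replicate 1 (0.0679 to 0.112). Rescaling gave -1.47 in PANC1, and relative to the median of all genes the change there was -0.80 as deposited and -0.79 rescaled. In A549 the values were 3.72, 2.54 and 2.19 in siC and 1.88, 1.33 and 2.99 in siI1, which overlapped, with a 95% interval of the log2 fold change from -1.10 to 0.31.

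Of the feedback genes, AMOTL2 (chr3:134355347-134375479, minus strand) was lower and LATS2 higher. AMOTL2 had 17.3, 15.5 and 16.5 FPKM in siC and 11.8, 11.2 and 13.0 in siI1 of A549, and 31.2, 30.5 and 31.7 against 25.6, 27.2 and 28.5 in PANC1. The groups were apart in both lines, with a log2 fold change of -0.44 ± 0.080 in A549 (limma adjusted p = 0.0179) and -0.20 ± 0.057 in PANC1 (0.0492). The A549 call was lost without any library other than siC replicate 2 and siI1 replicate 3 (limma adjusted p from 0.0575 to 0.0671), and the PANC1 call without any 1 of the 6 (0.0545 to 0.144); relative to the median of all genes the PANC1 change was -0.16 as deposited and -0.26 after rescaling. In ES2 AMOTL2 had 47.3, 48.4 and 48.8 against 44.9, 45.3 and 45.0 FPKM, and in MV3 35.0, 34.3 and 32.9 against 30.8, 33.0 and 32.1. These differences of -0.09 in each line were not past the threshold (limma adjusted p = 0.107 and 0.113), with 95% intervals from -0.18 to -0.01 in ES2 and from -0.18 to 0.00 in MV3.

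LATS2 (chr13:20973036-21061586, minus strand), the kinase that phosphorylates YAP and TAZ, had every siI1 library above every siC library in all 4 lines, although only MV3 and PANC1 were past the threshold. In A549 it had 5.36, 4.59 and 5.89 FPKM in siC and 6.63, 6.31 and 6.88 in siI1, and in ES2 2.93, 3.52 and 3.38 against 4.08, 4.15 and 4.18. In MV3 it had 6.12, 5.68 and 5.56 against 6.64, 6.47 and 6.73, and in PANC1 4.86, 5.33 and 5.74 against 7.21, 7.72 and 8.07. The widest gap was that of PANC1. LATS2 had a log2 fold change of 0.49 ± 0.084 in PANC1 (limma adjusted p = 0.00894), 0.30 ± 0.109 in A549 (0.132), 0.30 ± 0.088 in ES2 (0.0558) and 0.18 ± 0.050 in MV3 (0.0339). In MV3 the call was lost without any library other than siC replicate 1 (limma adjusted p from 0.0665 to 0.104) and after rescaling to the same sum (0.11), while in ES2 limma voom on recovered reads called it (0.0275). In PANC1 LATS2 kept its call whichever library was left out, and rescaling to the same sum gave -0.21 (limma adjusted p = 0.38), which is 0.48 above the median of all genes.

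The responses were then set against each other in 1 fit over the 24 libraries, with an F test of whether the knockdown effect differed between the 4 lines. It was past the threshold for 7 of the 10 members, where 45.0% of the 12816 genes tested were past it. WWTR1 (limma adjusted p = 8.36e-07) and YAP1 (4.93e-07) had the smallest values, followed by TEAD1 (0.000433), CTGF (0.00106), CYR61 (0.00142), AMOTL2 (0.00185) and TEAD4 (0.00671). For YAP1 the effects differed in size, from -1.40 in A549 to -0.58 in ES2, and for WWTR1 in sign, from 0.49 in ES2 to -0.19 in PANC1. Neither TEAD3 (limma adjusted p = 0.749), ANKRD1 (0.212) nor LATS2 (0.129) was past the threshold. For CTGF the difference was not past it with limma voom on recovered reads (adjusted p = 0.0808) or after rescaling to the same sum (0.0629), and for TEAD4 not after rescaling (0.264), under which ANKRD1 (0.00236) and LATS2 (0.0236) were.

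In the control libraries the levels of the members ran in different orders across the lines. The tables were normalised separately per line, so these orders are descriptions and were not tested. YAP1 was highest in ES2 (77.9 FPKM on average), with PANC1 (43.7) and MV3 (43.2) overlapping and A549 lowest (28.0). WWTR1 ran the other way between the extremes, with PANC1 at 35.2, A549 at 24.02, MV3 at 11.9 and ES2 at 5.59 FPKM, each apart from the next. ES2, with the most YAP1, also had the highest CTGF (46.3), CYR61 (217), ANKRD1 (683) and AMOTL2 (48.2). For CTGF and CYR61 the order was ES2, PANC1, MV3 and A549 with no overlap, down to 2.91 and 11.2 FPKM in A549. For ANKRD1, PANC1 (4.06) and A549 (2.82) overlapped and MV3 was lowest (0.849), so that ES2 stood 168-fold above the next line. TEAD1 was highest in MV3 (41.7) and A549 (38.0), which overlapped, and lowest in ES2 (13.7). TEAD4 was highest in ES2 (21.8) and MV3 (20.2), which overlapped. LATS2 varied least, from 3.28 FPKM in ES2 to 5.79 in MV3, and MV3, PANC1 and A549 overlapped.

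The other genes of the pathway were taken from 4 lists of 46 genes in all. In the kinase core, which holds the upstream kinases, their adaptors and LATS1, 1 of 10 genes was lower and none was higher in A549, 2 were lower and 2 higher in ES2, 4 lower and 1 higher in MV3, and 3 lower and 1 higher in PANC1. Of all tested genes 7.83% were lower and 5.93% higher in A549, 13.4% and 11.3% in PANC1, 19.5% and 16.3% in MV3, and 13.0% and 10.5% in ES2, so that with 10 genes a count of 1 or 2 is near these shares. MOB1A, the scaffold that activates LATS kinases, had 52.0 ± 5.33 FPKM in siC and 27.9 ± 1.38 in siI1 of A549, and 51.8 ± 1.09 and 33.8 ± 0.851 in PANC1 (SD, n = 3), with log2 fold changes of -0.88 ± 0.086 (limma adjusted p = 0.00257) and -0.61 ± 0.047 (0.00107). In MV3 it was -0.21 ± 0.031 (limma adjusted p = 0.00281), and in ES2 0.16 ± 0.069 (0.146). Its paralog MOB1B was called higher in ES2, at 0.39 ± 0.106 (limma adjusted p = 0.0437), and in no other line. The kinase TAOK3 was called lower in MV3, at -0.38 ± 0.062 (limma adjusted p = 0.00472), and ES2, at -0.22 ± 0.062 (0.0479), and stood at -0.29 ± 0.094 in PANC1 (0.0695) and 0.00 ± 0.147 in A549 (0.998). MAP4K4 was called lower in ES2 (-0.35, limma adjusted p = 0.00618), MV3 (-0.355, 0.000433) and PANC1 (-0.41, 0.00531), and stood at -0.20 in A549 (0.123). The core kinases STK3 and LATS1 and the adaptor SAV1 were called in no line.

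Among the 14 upstream and junction regulators, of which 12 were tested in each line, 5 were lower and none higher in A549, 2 lower and 3 higher in ES2, 4 lower and 2 higher in MV3, and 2 lower and 2 higher in PANC1. Against the shares of all genes just given, the counts of 2 of 12 genes were near the background. FRMD6, a membrane-associated activator of the cascade, rose in ES2 from 12.3 ± 0.886 to 21.9 ± 0.531 FPKM (0.82 ± 0.063, limma adjusted p = 0.000584), and also in MV3 (0.40 ± 0.029, 0.000294) and PANC1 (0.38 ± 0.057, 0.00611), but not in A549 (-0.08 ± 0.138, 0.75). FAT4, a giant cadherin upstream of the pathway, rose in ES2 by 0.89 ± 0.081 on the log2 scale (limma adjusted p = 0.00103) and in MV3 by 0.35 ± 0.053 (0.0036), and stood at 0.38 ± 0.132 in A549 (0.126) and -0.20 ± 0.084 in PANC1 (0.143). AMOTL1, the sister gene of AMOTL2, fell in A549 from 4.23 ± 0.0966 to 2.23 ± 0.050 FPKM (-0.79 ± 0.104, limma adjusted p = 0.00626) and stood at -0.10 in ES2, 0.09 in MV3 and -0.06 in PANC1, where it was not called. Other regulators of this list did not all move alike. AJUBA was called higher in ES2 (0.87, limma adjusted p = 0.000146) and lower in A549 (-0.62, 0.0041) and PANC1 (-0.33, 0.0103). It stood at -0.05 in MV3 (0.203). NF2 was called lower in A549 (-0.34, limma adjusted p = 0.0487), ES2 (-0.47, 0.00583) and MV3 (-0.32, 0.00378), and stood at -0.05 in PANC1 (0.643). LIMD1 was called lower in A549 (-0.46, limma adjusted p = 0.0131), MV3 (-0.23, 0.00331) and PANC1 (-0.32, 0.0188), and stood at -0.13 in ES2 (0.152). AMOT and DCHS1 were too low to be tested in any line.

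In the list of TEAD2 and VGLL cofactors, TEAD2, itself a DNA-binding factor, fell in A549 from 13.3 ± 1.04 to 8.69 ± 1.30 FPKM (-0.59 ± 0.124, limma adjusted p = 0.0275). VGLL4, which competes with YAP for TEAD, rose in A549 (0.41 ± 0.077, limma adjusted p = 0.0194), ES2 (0.50 ± 0.089, 0.0099) and MV3 (0.26 ± 0.045, 0.00574), and stood at 0.25 ± 0.082 in PANC1 (0.0695). VGLL2 was tested in ES2 alone, where it rose by 0.77 ± 0.172 (limma adjusted p = 0.022), and VGLL1 was tested in no line.

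Of the 17 other YAP and TAZ target genes, 7 were higher and 2 lower in A549 (17 tested), 10 higher and 2 lower in ES2 (16 tested), 6 higher and 1 lower in MV3 (15 tested), and 2 higher and 5 lower in PANC1 (15 tested). The 2 higher in PANC1, and the 1 or 2 lower in the other lines, were near or below the shares of all genes given above. Their median change was 0.38 in ES2, 0.20 in A549, 0.09 in MV3 and -0.03 in PANC1, beside the medians of all genes given above. AXL, a receptor tyrosine kinase, went from 276 ± 11.1 to 520 ± 15.7 FPKM in ES2 (0.91 ± 0.049, limma adjusted p = 0.000189), rose in A549 (0.49 ± 0.044, 0.00201) and MV3 (0.56 ± 0.044, 0.000373), and fell in PANC1 (-0.38 ± 0.046, 0.00292). NT5E, the ecto-nucleotidase CD73, went from 17.5 ± 1.35 to 35.9 ± 1.63 FPKM in A549 (1.02 ± 0.072, limma adjusted p = 0.00107) and was called higher in ES2 and PANC1 as well (0.35 in each), but stood at -0.08 in MV3. CCDC80, a matrix protein, went from 2.34 ± 0.174 to 8.51 ± 0.141 FPKM in ES2 (1.67 ± 0.074, limma adjusted p = 0.000115). DOCK5, a Rac exchange factor, fell in PANC1 alone of the 4 lines (-0.76 ± 0.128, limma adjusted p = 0.00876). AXL had the same sign of change as WWTR1 in each of the 4 lines, and so had MYOF, ASAP1 and DOCK5, which were not called in every line. The other genes of this list differed from WWTR1 in sign in at least 1 line. These signs were compared after the values were seen, and a relation to WWTR1 was not tested. Over the 4 lists no gene was called in the same direction in all 4 lines. After rescaling to the same sum the PANC1 counts over the lists went from 10 lower and 5 higher to 32 lower and 0 higher. Under that rescaling 8870 of all 16238 genes tested in PANC1 were lower and 96 higher, with a median change of -0.68. The list counts there are therefore not particular to these genes.

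**Figure D5:**
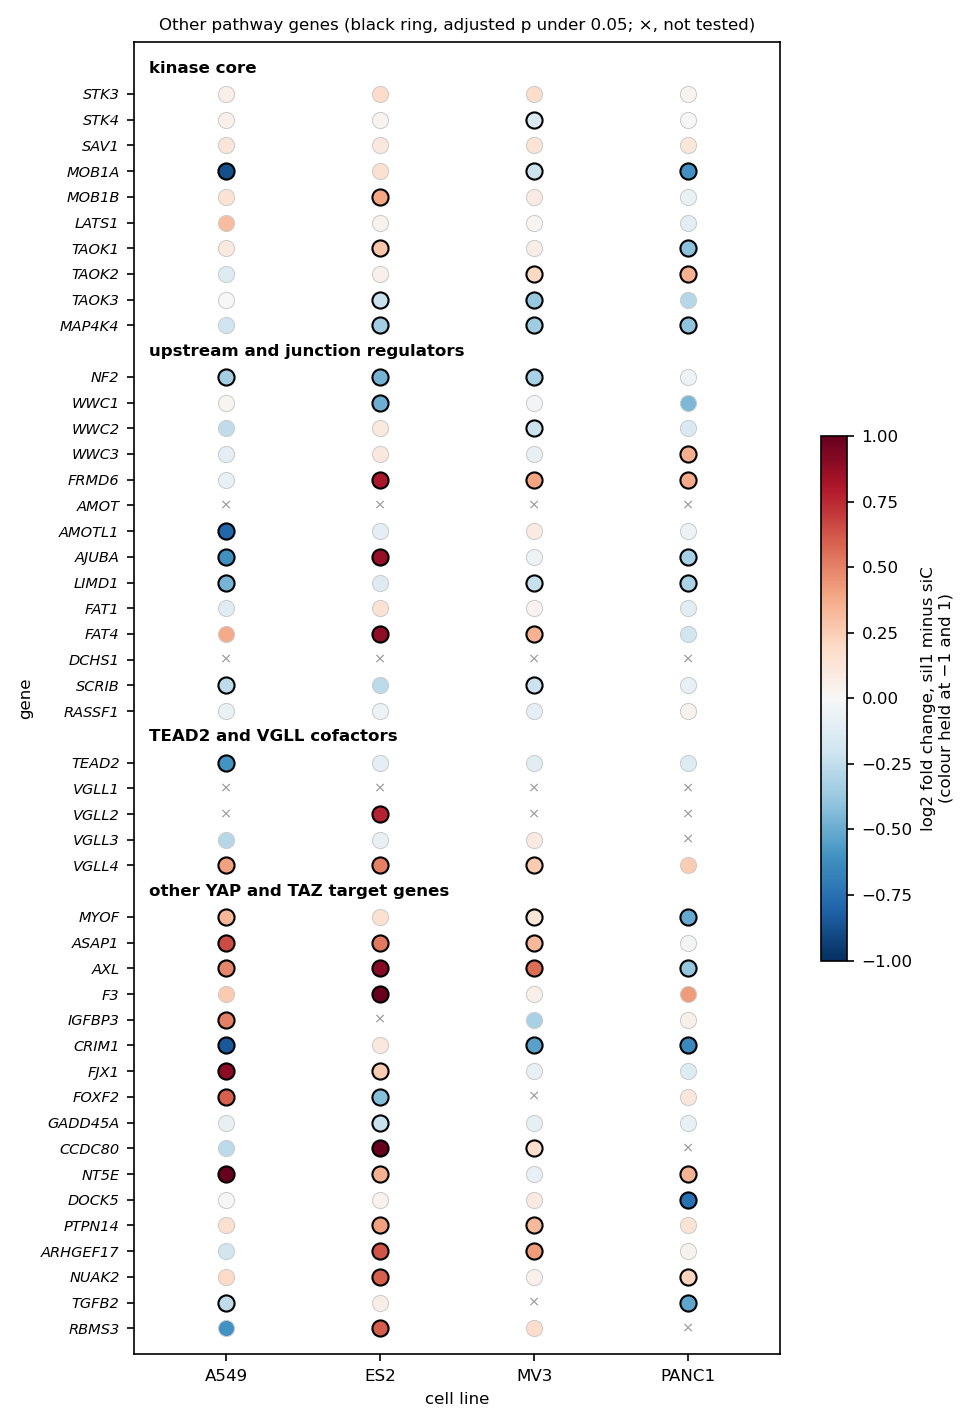
Log2 fold change, siI1 minus siC, of the 46 other pathway genes (rows, in their 4 lists) in the 4 cell lines (columns), coloured from blue (lower) to red (higher), with a black ring where the limma adjusted p was under 0.05 and a cross where a gene was too low to be tested. MOB1A is ringed in blue in A549, MV3 and PANC1, VGLL4 in red in A549, ES2 and MV3, and AXL in red in these 3 lines but in blue in PANC1. After rescaling to the same FPKM sum no gene of the lists was called higher in PANC1, where 96 of all 16238 tested genes were.

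Across the 24 libraries, with the mean of each line subtracted from log2(FPKM + 0.5), some pairs of members moved together and others in opposite directions. YAP1 went with TEAD1 (Pearson's r = 0.92) and AMOTL2 (0.90), LATS2 ran against YAP1 and TEAD1 (-0.86 each), and WWTR1 ran against TEAD4 (-0.86) and CTGF (-0.74). YAP1 and CTGF had an r of 0.04, and CYR61 had none beyond 0.215 in size with any other member. Among all protein-coding genes that averaged 1 FPKM or more in every line, those most like YAP1 were ZNF664 (0.99), CPSF2 (0.99) and DNAJC9 (0.98), and those most like WWTR1 were YES1 (0.96), CANX (0.95) and CMTM6 (0.95). TEAD1 was most like CENPF (0.96), CDK6 (0.96) and TMEM245 (0.95), and AMOTL2 most like OSBPL10 (0.95), CDK13 (0.94) and TGOLN2 (0.93). LATS2 was closest to RASA3 (0.91), KPTN (0.90) and ELMSAN1 (0.90), and TEAD4 to ORMDL2 (0.90), MICALL1 (0.89) and RALY (0.89). Likeness was lower for the targets, with CTGF closest to MB21D2 (0.85), CFL1 (0.84) and SAC3D1 (0.84), CYR61 to MTFR1 (0.86), PDE12 (0.81) and DCUN1D3 (0.80), and ANKRD1 to ZMYND11 (0.87), CLSPN (0.85) and ERLIN1 (0.84), and lowest for TEAD3 with FBRS (0.69), MAP2K5 (0.62) and NUTF2 (0.61). These values describe 24 libraries that share 4 lines and 1 knockdown, and carry no test.

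IGF2BP1 binds many of its mRNAs in the 3′ untranslated region, and the members differ widely in the length of the longest one annotated in GENCODE release 44. It is 7518 nt in TEAD1, 3573 in WWTR1, 3487 in YAP1, 2361 in AMOTL2, 1837 in LATS2, 1450 in TEAD3, 1091 in CTGF, 911 in CYR61, 773 in ANKRD1 and 201 in TEAD4. The median of the 10 is 1643 nt. It is 1537.5 nt over the 9590 protein-coding genes tested in all 4 lines whose longest 3′ untranslated region has at least 20 nt. Whether this length bears on the changes was not tested.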

How the data were processed

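Per the methods, the authors clipped reads with Cutadapt (1.14), aligned them to hg38 with HISAT2 (2.1.0), counted them per gene with featureCounts (1.5.3) and an Ensembl annotation, and tested each line with edgeR (3.30.3). The deposited values are FPKM, 1 table per line, scaled by the TMM-adjusted library total. The unit is not named there and was worked out from the values: multiplied by the deposited gene length, 100% were whole multiples of a fixed step, within 0.01, which gave the reads. The authors' log2 fold change, p-value and FDR columns were not used.

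Genes averaging 0.5 FPKM or more were tested as log2(FPKM + 0.5) with limma (3.58.1, R 4.3.3), per line over 6 libraries without covariates. The pseudocount understates changes of low genes. Differences between lines were tested by an F test over 24 libraries. All p-values were adjusted over all genes. Scripts were tested on simulated data. Replicate pairs differed beyond sampling noise (chi-square per gene 1.54 to 15.1), so each library counted once. Alternatives were other pseudocounts and filters, rescaling to the same sum, a replicate block, leaving out each library, and limma voom on recovered reads.

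The members and lists were chosen with earlier results of these data known. Beside the members, the genes named were IGF2BP1 and the 3 genes most like each member. Also named were list genes called in 1 direction in all 4 lines, and in each list and line the called gene with the largest change. STK3, LATS1, SAV1, MAP4K4, AJUBA, NF2, LIMD1, MYOF, ASAP1 and GADD45A were named after their values were seen. Gene coordinates are from GENCODE release 44 (hg38). Precision stated from reads covers counting error only.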

Additional observations from a re-analysis of the deposited data

Results flagged for a closer look

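By the limma F test adjusted over all genes, the knockdown effect differed between the 4 lines for 7 members and the targeted gene. Of the 12816 genes tested, 45.0% had an adjusted p under 0.05 in this test, so such a difference was common. The adjusted p was 4.93e-07 for YAP1, which fell in each line but by amounts from -0.58 to -1.40 on the log2 scale, and 8.36e-07 for WWTR1, which rose in A549, ES2 and MV3 and fell in PANC1. It was 0.000433 for TEAD1, 0.00671 for TEAD4, 0.00106 for CTGF, 0.00142 for CYR61 and 0.00185 for AMOTL2. IGF2BP1 had 9.77e-05, with log2 fold changes of -1.83 in PANC1, -1.55 in ES2, -1.52 in MV3 and -1.32 in A549. The line with the smallest change of IGF2BP1, A549, was the one with the largest change of YAP1, and PANC1, with the largest change of IGF2BP1, had the next largest of YAP1. PANC1 was also the only line sampled at 96 h. Leaving out 1 library at a time, the adjusted p stayed under 0.05 for all 7 members, with 2.29e-06 for YAP1, 6.06e-06 for WWTR1 and 0.0213 for TEAD4 as the highest values.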

How the results depend on the processing

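The direction of YAP1, TEAD1 and WWTR1 was the same in each line under every alternative run, and other pseudocounts (0.1 and 1) changed no call of a member. Rescaling to the same FPKM sum reversed 4 changes in PANC1, those of TEAD3 (-0.34), TEAD4 (-0.54), CYR61 (-0.54) and LATS2 (-0.21). Relative to the median of all genes, -0.68 under this rescaling, they stood at 0.34, 0.14, 0.15 and 0.48. The rescaling left 0 members called higher in MV3 and 0 in PANC1. Over all genes it gave 8870 lower and 96 higher in PANC1 against 2131 and 1796, and 1419 lower in ES2 against 2201, so that the share of lower genes among those called went from 54.3% to 98.9% and from 55.4% to 44.4%. With no filter on low values, 2 members were lower in ES2 and 3 in PANC1, and 1 was higher in each of ES2, MV3 and PANC1. Limma voom on recovered reads kept every call of a member and added LATS2 in ES2 and CYR61 in PANC1, and over all genes gave 2339 lower and 1837 higher in A549 against 1441 and 1092. Same-numbered siC and siI1 libraries showed no strong shared deviation over all genes (correlations from -0.056 to 0.071). Such correlations cannot show whether these libraries were handled together, and the main fit used no block. With the replicate block, 2 members were lower in A549, 1 in ES2 and 2 in PANC1, and 0 were higher in A549, 1 in MV3 and 1 in PANC1; over all genes 622 were lower and 379 higher in A549, and 1443 and 1169 in ES2. Leaving out 1 library gave 2 to 3 members lower in A549, 1 to 3 in ES2, 5 to 6 in MV3 and 2 to 3 in PANC1, and 1 to 1, 1 to 2, 1 to 2 and 1 to 3 higher. It gave 7 to 8 members that differed between lines. It reversed TEAD3 in A549 (range -0.298 to 0.054), ES2 (-0.245 to 0.05) and PANC1 (-0.025 to 0.33) and CYR61 in A549 (-0.031 to 0.291), none of them called, and over all genes called as few as 796 lower and 526 higher in A549. The cause of these changes was not tested. ANKRD1 in MV3 without siC replicate 1 had a mean under the filter and gave no value. Depth limits TEAD3, CTGF and ANKRD1 in A549, where a library held 11 to 37 reads of each.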
